A study of Mus musculus with 6 samples.

Results

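The 10 genes described here are granzyme A, granzyme B, granzyme K, perforin (Prf1), Nkg7, Klrd1, Pdcd1, Tox, Lag3 and Ctla4, which are commonly read as marks of cytotoxic and exhausted lymphocytes. They were taken by symbol, through the Ensembl IDs of the count table, and are 10 of its 49671 gene IDs. All 10 had an entry. The question put to them was whether their transcripts differed between livers with and without Shmt2 in hepatocytes.

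Whole-liver RNA was sequenced from 3 SHMT2fl/fl and 3 SHMT2HKO male mice. SHMT2fl/fl mice carry 2 floxed alleles of Shmt2, the gene of the mitochondrial serine hydroxymethyltransferase, without Cre. SHMT2HKO mice carry the same alleles with an Albumin-Cre allele, which acts in hepatocytes, so that lymphocytes keep the gene. All 6 were weaned onto chow and given AMLN diet, a high-fat, high-fructose and high-cholesterol feed used to induce steatohepatitis, from 4 weeks of age for 18 weeks, and were 22 weeks old at the end. The labels call the groups WT and KO, and nothing in them says how the 3 mice of a group are related.

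Counts on genes were 33954714, 23090837 and 34089722 in SHMT2fl/fl mice 1, 2 and 3, and 29092690, 24641842 and 25848326 in SHMT2HKO mice 1, 2 and 3. Levels are given as CPM, the deposited count scaled to the size of its library after TMM scaling (trimmed mean of M-values). The targeted gene Shmt2 (chr10:127517123-127522444, GRCm38) stood at 94.6, 109 and 93.9 CPM in the SHMT2fl/fl livers and at 24.9, 28.3 and 19.3 CPM in the SHMT2HKO livers. It was 4.11-fold lower in SHMT2HKO livers (log2 fold change -2.04, SE 0.16, edgeR adjusted p = 0.000639; -2.06 and 0.000475 without SHMT2HKO mouse 1), and each SHMT2HKO library lay below each SHMT2fl/fl library. Hepatocyte markers were abundant in all 6 livers, with 7 of them summing to 49400, 50700 and 60600 CPM in SHMT2fl/fl and to 86300, 90500 and 60600 CPM in SHMT2HKO mice, so each library held liver RNA.

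The library of SHMT2HKO mouse 1 stood apart from the other 5. In it, 182 genes had at least 30 counts while no other library had more than 3, and the same rule found 1, 2 and 0 genes in SHMT2fl/fl mice 1, 2 and 3 and none in SHMT2HKO mice 2 and 3. Among them were transcripts of the placenta, such as Tpbpa with 1439 counts and Prl3b1 with 956 counts, and of the brain, such as Snap25 with 805 counts and Mobp with 573 counts. Of 9 placental transcripts picked after their values were seen, the summed level was 179 CPM in this library, against 0.0261 CPM in SHMT2fl/fl mouse 3 and 0 in the other 4. Xist, the RNA of the inactive X chromosome, had 239 counts there and 15 to 36 counts elsewhere. The genes specific to this library made up 0.0743% of its gene counts, and the 10 genes are themselves rare, at 12 CPM in all in that library. How these transcripts came into the library was not tested, and the comparison of each of the 10 genes that could be tested, and the count of each main gene list, is therefore given with and without SHMT2HKO mouse 1. Of 78 further listed genes that passed with all mice, 71 also passed without that mouse, none changed sign, and 7 did not pass (Batf, Cd2, Foxp3, Hcst, Il18rap, Tigit and Ttr). Levels per kilobase rest on all 6 mice.

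**Figure D1:**
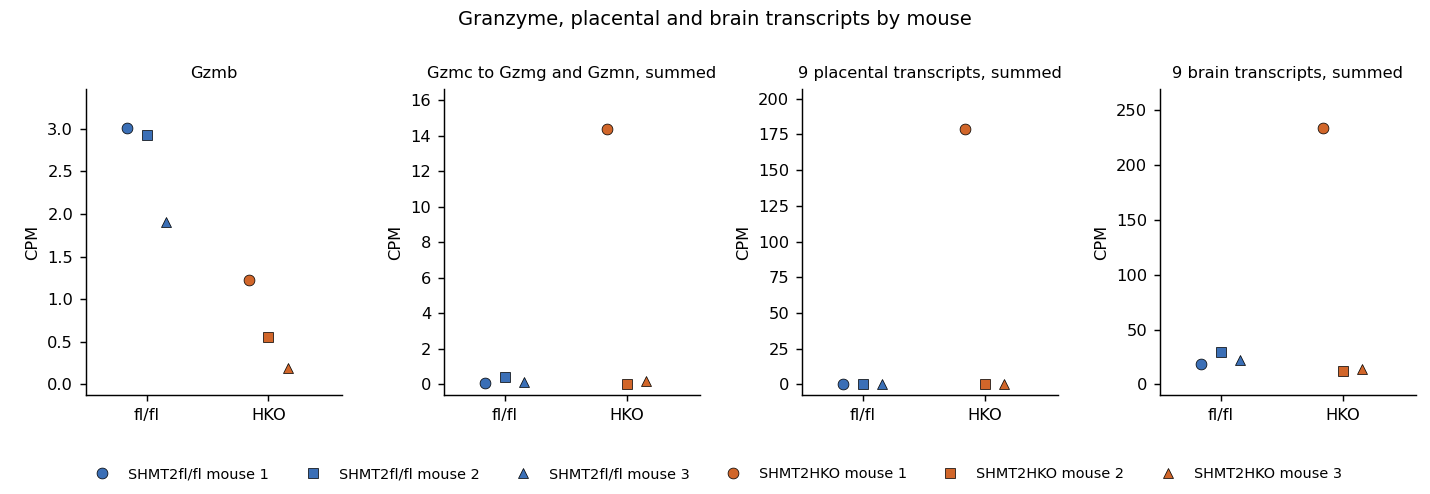
CPM (linear axes) of Gzmb, of 6 other granzymes of its chromosome 14 cluster summed, of 9 placental and of 9 brain transcripts summed, for each mouse (points; blue SHMT2fl/fl, orange SHMT2HKO). SHMT2HKO mouse 1 (orange circle) is at 14.4 CPM for the 6 granzymes, 179 CPM for the placental and 234 CPM for the brain transcripts, far above the other 5 mice.

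Cytotoxic T cells and natural killer (NK) cells kill by releasing granules that hold perforin, which opens the target cell membrane, and granzymes, serine proteases that enter through it. T cells that meet antigen for long, as in chronic infection, tumours and steatohepatitis, take up an exhausted state with inhibitory receptors such as PD-1 (Pdcd1), LAG-3 and CTLA-4 under the transcription factor TOX. The liver is rich in NK cells, type 1 innate lymphoid cells and CD8 T cells, and none of these cells is a large part of whole-liver RNA.

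Of the 10 genes, 4 fell in SHMT2HKO livers (Gzmb, Nkg7, Klrd1 and Pdcd1), 1 rose (Tox), 3 were tested without passing (Gzma, Prf1 and Lag3) and 2 were too low to be tested (Gzmk and Ctla4). Across all 16089 genes tested with edgeR at an adjusted p under 0.05, 16.5% were lower and 12.5% higher, so a change in either direction was common in these livers. The filter asked for about 0.364 CPM, before TMM scaling, in 3 libraries. Gzmb, Nkg7, Klrd1, Pdcd1 and Prf1 met it through the SHMT2fl/fl libraries alone. Of all genes tested, 1596 met it in this way, and 576 of them were lower in SHMT2HKO livers. This background, and not the 16.5%, is the one for genes said below to have passed through these libraries alone. The count of genes that fell is therefore a description and not support for a shift of the set. With the filter removed, the 4 genes that fell had edgeR adjusted p-values of 0.000125 (Nkg7), 0.00323 (Klrd1), 0.015 (Gzmb) and 0.0283 (Pdcd1). The same 4 genes fell and Tox rose without SHMT2HKO mouse 1, beside 17.4% of all genes lower and 12.0% higher. Low counts mark 7 of the 10 genes: Gzmb, Gzmk, Prf1, Nkg7, Klrd1, Pdcd1 and Ctla4 had under 10 counts in at least 1 library or did not pass the filter on low counts. In whole liver, fewer lymphocytes and less of a transcript in each lymphocyte cannot be told apart. Which cells carried each transcript, lymphocytes or others, was not measured.

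**Figure D2:**
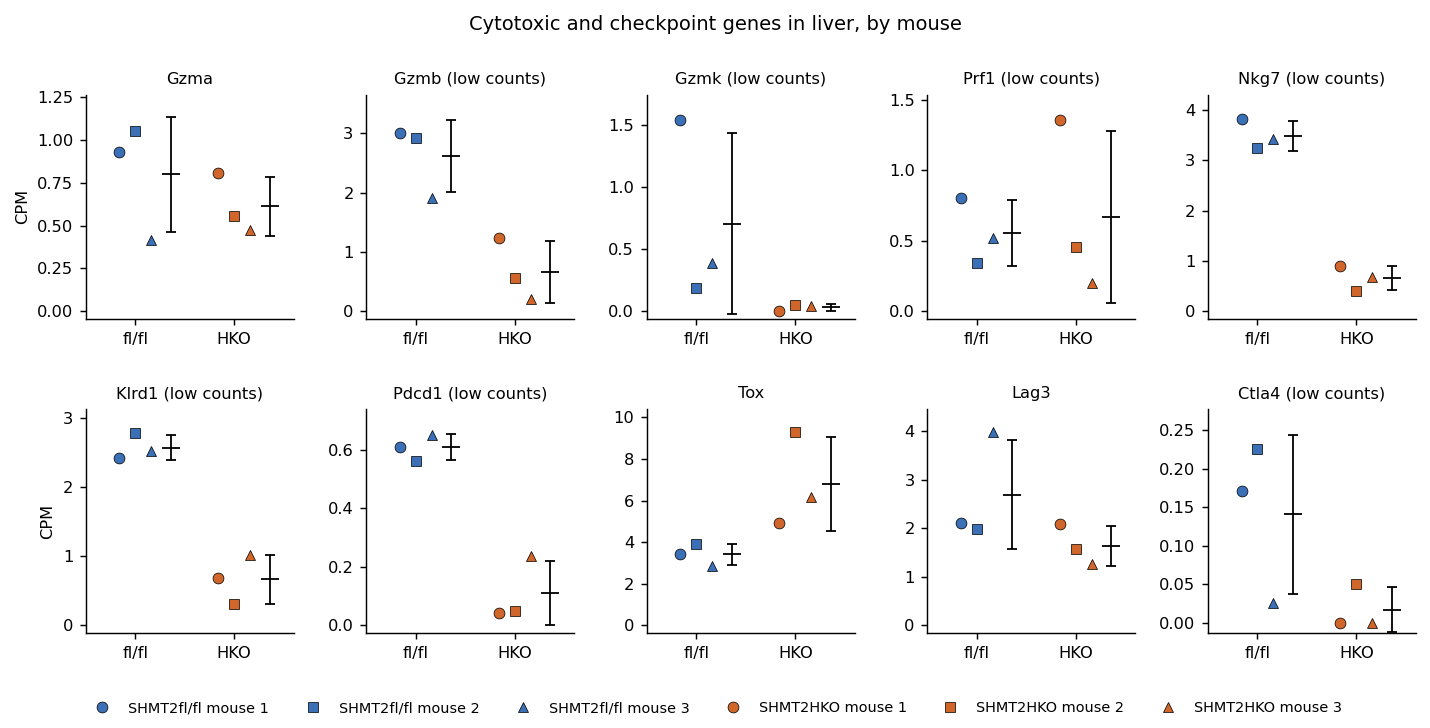
CPM of the 10 genes in each mouse (points, linear axes that differ between panels), with mean and SD beside the 3 mice of each group. Nkg7, Klrd1, Gzmb, Pdcd1 and the untested Gzmk are lower in every SHMT2HKO mouse than in any SHMT2fl/fl mouse. Of all genes tested, 25.0% showed this pattern. Tox is higher in every SHMT2HKO mouse, a pattern whose share was not counted, and Gzma, Prf1, Lag3 and Ctla4 overlap.

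Nkg7 and Klrd1, genes of the granule membrane and the cell surface, both fell. Nkg7 (ENSMUSG00000004612, chr7:43437073-43438249, plus strand), a membrane protein of the cytotoxic granule in NK and CD8 T cells, had 156, 86 and 131 counts in the SHMT2fl/fl livers and 21, 8 and 17 in the SHMT2HKO livers, or 3.82, 3.24 and 3.42 CPM against 0.891, 0.405 and 0.669 CPM. Every SHMT2fl/fl liver was above every SHMT2HKO liver, a pattern that 25.0% of all genes tested showed in this direction. Nkg7 was 5.26-fold lower in SHMT2HKO livers (log2 fold change -2.39, SE 0.33, edgeR adjusted p = 0.00217). Without SHMT2HKO mouse 1 the log2 fold change was -2.66 (edgeR adjusted p = 0.00106).

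Klrd1 (ENSMUSG00000030165, chr6:129591782-129598775, plus strand) encodes CD94, which pairs with NKG2 chains to form receptors of NK and activated CD8 T cells. It stood at 2.42, 2.78 and 2.53 CPM in SHMT2fl/fl livers and at 0.679, 0.304 and 1.02 CPM in SHMT2HKO livers. The groups did not overlap, and the SHMT2fl/fl values lay close together while those of SHMT2HKO mice ranged more widely. Klrd1 was 3.78-fold lower (log2 fold change -1.92, SE 0.41, edgeR adjusted p = 0.0107), and -1.90 on the log2 scale without SHMT2HKO mouse 1 (edgeR adjusted p = 0.0121). Nkg7 and Klrd1 are the members whose call held under every alternative in which they were tested, with adjusted p-values (edgeR, DESeq2 or limma-voom) of at most 0.0147 and 0.0444, both without SHMT2fl/fl mouse 3. The alternative of at least 10 counts in every library removed both, along with the other 5 genes marked for low counts.

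Of the granzymes and perforin, Gzmb passed the test and Gzma and Prf1 did not, and the difference between genes was not tested. Gzmb (ENSMUSG00000015437, chr14:56258838-56262260, minus strand), the granzyme that cleaves caspases, had 123, 78 and 73 counts in SHMT2fl/fl livers and 29, 11 and 5 counts in SHMT2HKO livers. This is 3.01, 2.93 and 1.91 CPM against 1.23, 0.557 and 0.197 CPM, and the highest SHMT2HKO value is that of mouse 1. Gzmb was 3.94-fold lower with all mice (log2 fold change -1.98, SE 0.55, edgeR adjusted p = 0.0298) and -2.83 on the log2 scale without SHMT2HKO mouse 1 (SE 0.47, edgeR adjusted p = 0.00325). The call did not hold without SHMT2fl/fl mouse 1, 2 or 3 or without SHMT2HKO mouse 2, with edgeR adjusted p-values of 0.0615 to 0.0983.

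Gzma (ENSMUSG00000023132, chr13:113093825-113100981, minus strand), a tryptase of NK and CD8 T cell granules, stood at 0.93, 1.05 and 0.418 CPM in SHMT2fl/fl livers and at 0.806, 0.557 and 0.472 CPM in SHMT2HKO livers. SHMT2fl/fl mouse 3 had the lowest value of all 6, so the groups overlap. The log2 fold change was -0.37 (SE 0.46, edgeR adjusted p = 0.579), and -0.62 without SHMT2HKO mouse 1 (SE 0.51, edgeR adjusted p = 0.395).

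Gzmk (ENSMUSG00000042385, chr13:113171608-113225908, minus strand) marks effector memory CD8 T cells, and Esm1 lies within its span on the other strand without sharing exons. It had 63, 5 and 15 counts in SHMT2fl/fl livers and 0, 1 and 1 counts in SHMT2HKO livers, and SHMT2fl/fl mouse 1 held most of the 83 counts of its group. The groups did not overlap, but with so few counts the gene did not pass the filter. The ratio of the summed counts, scaled to library size, was 27-fold (exact 95% interval 7.23 to 226, for counting error only), and 10.6-fold without SHMT2fl/fl mouse 1 (2.57 to 93.4). With the filter removed edgeR gave an adjusted p of 0.00572. When SHMT2HKO mouse 1 was left out, the gene entered the fit through its SHMT2fl/fl counts alone (edgeR adjusted p = 0.0469), and it is not counted among the genes that fell.

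Prf1 (ENSMUSG00000037202, chr10:61297833-61304680, plus strand), the perforin gene, had 33, 9 and 20 counts in SHMT2fl/fl livers and 32, 9 and 5 counts in SHMT2HKO livers. The 32 counts belong to SHMT2HKO mouse 1, whose 1.36 CPM is the highest of all, and the SHMT2HKO values span the range of the SHMT2fl/fl ones. The log2 fold change was 0.25 (SE 0.67, edgeR adjusted p = 0.809) and turned to -0.83 without SHMT2HKO mouse 1 (SE 0.59, edgeR adjusted p = 0.325), so no direction can be given for this gene.

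In SHMT2HKO mouse 1, other granzymes of the Gzmb cluster on chromosome 14, named after their values were seen, were also present. Gzmc, Gzmd, Gzme, Gzmf and Gzmg had 43, 84, 38, 70 and 104 counts there and at most 11, 3, 0, 0 and 0 counts in any other library. These genes are known for expression in granular cells of the pregnant uterus and in activated killer cells. The transcripts of Gzmb and Gzmc are 76.3% identical over their aligned part, and those of Gzmd and Gzme 93.5%, so reads may be split or lost between the last 2 in a way that the count of unique hits cannot show. Whether part of the Gzmb and Prf1 counts of this library came with these transcripts was not tested.

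The upstream windows of Gzmb and Gzma are shown because one of these granzymes, which lie on different chromosomes, passed the test and the other did not. Both cover 250 bases before the RefSeq start (GRCm38.p6), Gzmb at chr14:56262335-56262584 and Gzma at chr13:113100982-113101231, minus strand, printed 5′ to 3′ along the gene, and capitals mark matches on either strand.
Gzmb: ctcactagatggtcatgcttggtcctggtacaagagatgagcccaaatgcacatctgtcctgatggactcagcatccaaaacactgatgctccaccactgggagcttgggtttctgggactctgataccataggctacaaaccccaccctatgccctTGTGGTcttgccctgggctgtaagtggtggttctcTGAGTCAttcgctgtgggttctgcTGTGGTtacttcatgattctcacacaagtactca
Gzma: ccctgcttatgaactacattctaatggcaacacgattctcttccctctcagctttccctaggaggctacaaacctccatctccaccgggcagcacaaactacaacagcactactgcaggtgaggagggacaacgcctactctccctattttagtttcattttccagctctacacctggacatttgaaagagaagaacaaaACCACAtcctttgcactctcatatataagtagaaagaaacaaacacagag
The motifs searched, for factors that act in lymphocytes, were TGTGGT for RUNX, GGTGTG for T-box, TGANTCA for AP-1 and AGGAAGT for ETS. Gzmb held 2 RUNX matches and 1 AP-1 match, and Gzma 1 RUNX match, while RUNX letters occur in 14.0%, T-box in 16.3%, AP-1 in 6.75% and ETS in 7.69% of the 32851 windows of this length. RefSeq windows were found for 7 of the 10 genes. Prf1 held 1 RUNX and 2 ETS matches, Nkg7 1 RUNX and 1 T-box match, and Gzmk 1 T-box match, while these letters were not found in the Pdcd1 and Ctla4 windows. RUNX and T-box letters can overlap, and a match is a stretch of letters, not a bound site.

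Of the inhibitory receptors, Pdcd1 fell, Lag3 did not pass and Ctla4 was too low to be tested. Pdcd1 (ENSMUSG00000026285, chr1:94038305-94052553, minus strand), which encodes PD-1, had 25, 15 and 25 counts in SHMT2fl/fl livers and 1, 1 and 6 counts in SHMT2HKO livers. This is 0.612, 0.564 and 0.652 CPM against 0.0424, 0.0506 and 0.236 CPM, with no overlap, and no SHMT2HKO library reached the level of the filter. Pdcd1 was 5.18-fold lower (log2 fold change -2.37, SE 0.61, edgeR adjusted p = 0.0225) and -1.97 on the log2 scale without SHMT2HKO mouse 1 (edgeR adjusted p = 0.0399). Without SHMT2HKO mouse 3, which held the 6 counts, it was -3.63 (edgeR adjusted p = 0.00576), so the size of the fall rests on few counts. The call did not hold without any 1 of the SHMT2fl/fl mice or without SHMT2HKO mouse 2, with edgeR adjusted p-values of 0.0632 to 0.0808.

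Lag3 (ENSMUSG00000030124, chr6:124904361-124911705, minus strand), a receptor that binds MHC class II, stood at 2.1, 1.99 and 3.99 CPM in SHMT2fl/fl livers and at 2.08, 1.57 and 1.26 CPM in SHMT2HKO livers. SHMT2fl/fl mouse 3 was far above the other 5, and SHMT2HKO mouse 1 was level with SHMT2fl/fl mouse 1. The log2 fold change was -0.72 (SE 0.36, edgeR adjusted p = 0.168), and -0.94 without SHMT2HKO mouse 1 (SE 0.39, edgeR adjusted p = 0.0991). It passed only without TMM scaling (edgeR adjusted p = 0.0343), which also moved the median of all genes by -0.42.

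Ctla4 (ENSMUSG00000026011, chr1:60887000-60915832, plus strand), which competes with CD28 for CD80 and CD86, had 7, 6 and 1 counts in SHMT2fl/fl livers and 0, 1 and 0 counts in SHMT2HKO livers. A count of 3, the one-sided 95% limit that a count of 0 allows, was 0.127 CPM in SHMT2HKO mouse 1 and 0.118 CPM in mouse 3. The summed counts gave a ratio of 9.09 (exact 95% interval 1.38 to 385, for counting error in pooled reads only), and with the filter removed edgeR gave an adjusted p of 0.228. The gene had 15 counts in all, and no direction is given for it.

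Tox (ENSMUSG00000041272, chr4:6686353-6991557, minus strand, overlapped by the antisense gene Gm11802 with 0 counts), a high mobility group factor needed for the exhausted state and for T cell development, went the other way. It had 141, 104 and 110 counts in SHMT2fl/fl livers and 116, 184 and 157 counts in SHMT2HKO livers, or 3.45, 3.91 and 2.87 CPM against 4.92, 9.32 and 6.18 CPM. No SHMT2HKO liver overlapped a SHMT2fl/fl liver in CPM, although the raw counts of SHMT2HKO mouse 1 did. The share of all genes with this pattern in the upward direction was not counted. Tox was 1.99-fold higher (log2 fold change 1.0, SE 0.27, edgeR adjusted p = 0.0276) and 1.19 on the log2 scale without SHMT2HKO mouse 1 (edgeR adjusted p = 0.00835). The log2 fold change was 0.56 without TMM (edgeR adjusted p = 0.158) and 0.27 with scaling to the ERCC spike-in RNAs (edgeR adjusted p = 0.724). These scalings moved the median of all genes by -0.42 and -0.72, so the rise of Tox is one relative to the other genes. It also did not pass without SHMT2fl/fl mouse 1, 2 or 3 or SHMT2HKO mouse 2 (edgeR adjusted p 0.0579 to 0.109).

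**Figure D3:**
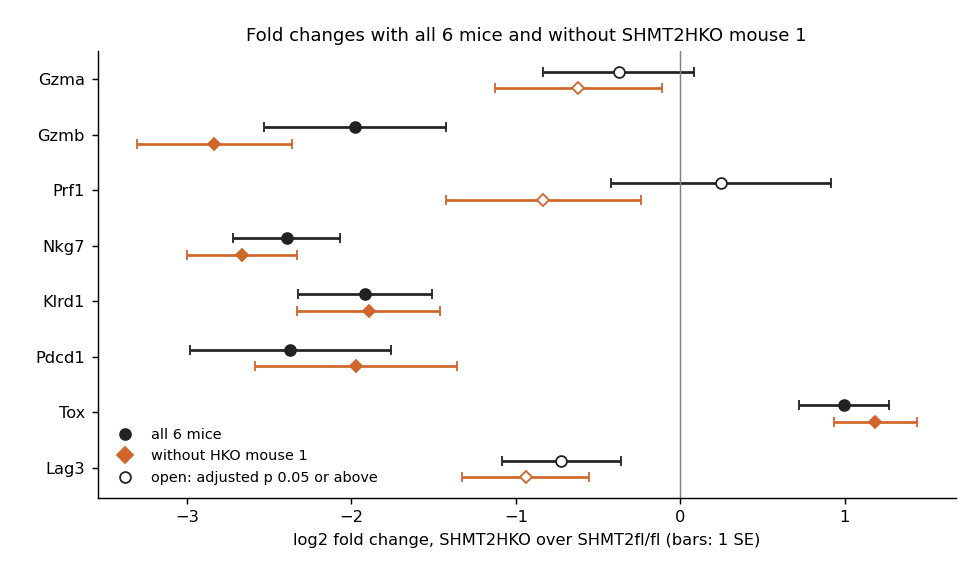
Log2 fold change (SHMT2HKO over SHMT2fl/fl, x axis, bars 1 SE) of the 8 genes tested, with all 6 mice (black circles) and without SHMT2HKO mouse 1 (orange diamonds). Filled symbols have an edgeR adjusted p under 0.05. Prf1 changes sign, from 0.25 to -0.83, and the other 7 keep their direction.

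Per kilobase of exon, the scale on which genes can be compared, Nkg7 was the most abundant of the 10 in SHMT2fl/fl livers at 3.82 ± 0.325 CPM per kb (SD, n = 3), followed by Klrd1 at 2.01 ± 0.145 and Gzmb at 1.82 ± 0.43. Klrd1 and Gzmb did not differ beyond their spread. Lag3 stood at 1.28 ± 0.533, Gzma at 0.795 ± 0.335, Gzmk at 0.509 ± 0.525 and Tox at 0.448 ± 0.0686 CPM per kb, and neighbours among these overlap in their spread. Pdcd1 at 0.316 ± 0.0228, Prf1 at 0.215 ± 0.0914 and Ctla4 at 0.0605 ± 0.0443 CPM per kb came last. In SHMT2HKO livers Tox, at 0.895 ± 0.298, and Lag3, at 0.776 ± 0.196 CPM per kb, stood at the head of the order with Nkg7, at 0.717 ± 0.266, and the spread does not separate these 3 from each other or from Gzma (0.608 ± 0.173), Klrd1 (0.522 ± 0.281) and Gzmb (0.461 ± 0.365).

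Other granule genes listed for the killing machinery were lower where they passed, and whether killer cells or other cells carried them was not measured. Of 19 further granule genes listed, 18 were in the table (Gnly had no ID), 12 were tested, 5 fell and none rose, beside the 16.5% of all genes that fell. Ctsw, the protease cathepsin W of NK and CD8 T cells, fell from 5.68, 4.59 and 4.85 CPM to 1.06, 0.506 and 0.433 CPM (log2 fold change -2.91, edgeR adjusted p = 0.00161, and -3.42 without SHMT2HKO mouse 1). Serpinb9, which protects the killer cell from its own granzyme B, fell by 0.90 on the log2 scale (edgeR adjusted p = 0.00392). Serpinb6b, Unc13d and Srgn were the other 3. Without SHMT2HKO mouse 1, the same 5 of 12 fell, and none of the 5 had passed the filter through the SHMT2fl/fl libraries alone.

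Of 22 further receptors and effectors, 18 were tested, 10 fell and none rose, beside 16.5% of all genes lower and 12.5% higher. Of the 10, 5 (Cd160, Hcst, Klrb1c, Klrc1 and Xcl1) had passed the filter through the SHMT2fl/fl libraries alone, and the count is a description. The chemokines Xcl1 (-3.20) and Ccl5 (-2.29), both secreted by activated NK and CD8 T cells, and the receptor Klrc1, the NKG2A partner of CD94 (-2.59), fell (edgeR adjusted p 0.00374, 0.000943 and 0.00855), and were at -2.83, -2.15 and -2.66 without SHMT2HKO mouse 1. Ncr1, the NKp46 receptor of NK cells and type 1 innate lymphoid cells, was at 0.783, 0.677 and 0.522 CPM in SHMT2fl/fl livers and 0, 0.0506 and 0.354 CPM in SHMT2HKO livers, and did not pass (edgeR adjusted p = 0.0794, and 0.0947 without SHMT2HKO mouse 1). Fasl, with 1 count each in SHMT2HKO mice 2 and 3, passed only without SHMT2HKO mouse 1, where it entered through its SHMT2fl/fl values alone (log2 fold change -3.78, edgeR adjusted p = 0.00771), and Hcst only with it, so that 10 of 19 fell in that comparison.

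Among 15 transcription factors, cytokines and cytokine receptors of cytotoxic cells, 14 were tested, 8 fell and 2 rose, beside 16.5% and 12.5% of all genes, and 4 of the 8 (Il18r1, Il18rap, Tbx21 and Zfp683) had passed the filter through the SHMT2fl/fl libraries alone. Tbx21 encodes T-bet and fell by 2.60 on the log2 scale (edgeR adjusted p = 0.00662), and Runx3, a factor of the CD8 lineage, fell by 1.5 (edgeR adjusted p = 0.00316). Hopx rose, from 22.9, 22.8 and 16.3 CPM to 75.3, 57.8 and 58.6 CPM, and so did Il15ra. Eomes stood at 0.612, 0.414 and 0.522 CPM against 0.552, 0.354 and 0.354 CPM (edgeR adjusted p = 0.617). Without SHMT2HKO mouse 1, 7 fell and 2 rose of 15.

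Of 21 further checkpoint and exhaustion genes, all were tested, 7 fell and none rose, beside 16.5% and 12.5% of all genes, and 3 of the 7 (Cxcr6, Tigit and Tox2) had passed the filter in the same one-sided way. Cxcr6, a receptor of liver-resident T and NK cells, fell by 2.42 on the log2 scale (edgeR adjusted p = 0.00167), Tox2, a relative of Tox, by 2.09 (edgeR adjusted p = 0.00473) and Havcr2, which encodes TIM-3, by 1.45 (edgeR adjusted p = 0.011). Tox2 was at 3.45, 3.31 and 2.71 CPM and at 0.764, 0.405 and 1.02 CPM, opposite in direction to Tox. Tigit and Batf fell with all mice but did not pass without SHMT2HKO mouse 1 (edgeR adjusted p = 0.081 and 0.0624), leaving 5 lower and 1 higher, Rgs16, of 21, beside 17.4% and 12.0% of all genes. Tnfrsf9 (4-1BB) was at 6.92 CPM in SHMT2HKO mouse 1 and at most 0.887 CPM in the other 5, and its log2 fold change went from 2.05 to -0.81 without that mouse.

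Of the ligands, 16 were listed, 14 tested, 4 fell and 1 rose, beside 16.5% and 12.5% of all genes. The MHC class II genes H2-Aa, H2-Ab1 and H2-Eb1, whose products bind LAG-3, fell by 2.01, 1.90 and 1.98 on the log2 scale (edgeR adjusted p 0.00477, 0.00663 and 0.00438), and Cd86, a ligand of CTLA-4, by 0.91 (edgeR adjusted p = 0.0168). Clec4g, which encodes LSECtin of sinusoidal endothelium, rose by 1.93 on the log2 scale (edgeR adjusted p = 0.0032). Cd274, which encodes PD-L1, was at 5.48, 2.48 and 4.78 CPM against 2.59, 2.94 and 2.48 CPM (edgeR adjusted p = 0.14). Fgl1, a hepatocyte ligand of LAG-3, was at 294, 191 and 206 CPM in SHMT2fl/fl livers and at 952, 256 and 123 CPM in SHMT2HKO livers, and its log2 fold change went from 0.94 to -0.28 without SHMT2HKO mouse 1. Without that mouse the same counts, 4 lower and 1 higher of 14, were found.

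Markers of the cells that can carry these genes differed by list. Of 16 T cell markers, 14 fell, beside 16.5% of all genes, 9 of them after passing the filter through the SHMT2fl/fl libraries alone, and their summed level was 58.9, 48.1 and 57.7 CPM in SHMT2fl/fl livers and 29, 19.9 and 17.1 CPM in SHMT2HKO livers. The CD3 chain gene Cd3e went from 3.72, 3.09 and 3.03 CPM to 0.255, 0.608 and 0.945 CPM (log2 fold change -2.43, edgeR adjusted p = 0.00517), and Cd8a from 6.9, 3.69 and 5.35 CPM to 1.15, 0.81 and 1.06 CPM (log2 fold change -2.39, edgeR adjusted p = 0.00183). Zap70, the largest part of the summed CPM, and Cd4 did not pass, and both were highest in SHMT2HKO mouse 1. Cd4 passed without that mouse (log2 fold change -1.12, edgeR adjusted p = 0.0155) and Cd2 did not, so that 14 of 16 fell again.

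Of 10 NK cell and innate lymphoid cell markers, 5 fell, beside the same 16.5%. These 5 (Klrb1c, Klrk1, Klrc1, Tbx21 and Il2rb) are among the 8 markers that also stand in the receptor and transcription factor lists, so they are not further genes, and Klrb1c, Klrc1 and Tbx21 had passed the filter through the SHMT2fl/fl libraries alone. The summed level was 30, 32.7 and 28.2 CPM against 16.6, 17.5 and 23.3 CPM. The largest part of this sum was the integrin Itga1, which other liver cells also express, at 15.4, 15.7 and 15.2 CPM against 11.9, 13.1 and 16.4 CPM (edgeR adjusted p = 0.462). Without SHMT2HKO mouse 1, 6 of 10 fell, beside 17.4% of all genes. The added gene, Itga2, had 2 and 5 counts in SHMT2HKO mice 2 and 3 and met the filter through its SHMT2fl/fl values alone (edgeR adjusted p = 0.0379). Of 6 regulatory T cell markers, 5 were tested and 2 fell (Foxp3 and Ikzf2, both after passing the filter through the SHMT2fl/fl libraries alone, and Ikzf2 by itself without SHMT2HKO mouse 1), and the summed level overlapped, at 5.94, 9.78 and 7.62 CPM against 7.34, 3.49 and 4.72 CPM. Foxp3 was at 0.391, 0.376 and 0.365 CPM against 0.17, 0.101 and 0.118 CPM (edgeR adjusted p = 0.0476, and 0.0626 without SHMT2HKO mouse 1). Of 7 gamma-delta T cell markers, 3 were tested and none fell (edgeR, lowest adjusted p 0.1, for Tcrg-C2), with summed levels of 14.7, 17.5 and 15.2 CPM against 16.3, 12.7 and 14.6 CPM, mostly Sox13. Tcrg-C2 was at 0.152 and 0.0787 CPM in SHMT2HKO mice 2 and 3, and in the comparison without SHMT2HKO mouse 1 it entered through its SHMT2fl/fl values alone (edgeR adjusted p = 0.0147). Ptprc, the common leukocyte gene CD45, fell by 1.19 on the log2 scale (edgeR adjusted p = 0.0133), and by 1.03 without SHMT2HKO mouse 1 (edgeR adjusted p = 0.0215). Of the other lists, beside 16.5% of all genes lower and 12.5% higher, 2 of 8 B cell markers fell, 4 of 10 macrophage markers fell and 3 rose (Clec4f, Timd4 and Vsig4, genes of Kupffer cells), and all 6 cholangiocyte markers fell (Cftr after passing the filter through the SHMT2fl/fl libraries alone), with the same counts without SHMT2HKO mouse 1. Of 6 stellate cell markers, 3 fell (among them Col1a1, by 1.86 on the log2 scale) and Reln rose, 2 of 4 plasmacytoid dendritic cell markers and 1 of 4 neutrophil markers fell, and 2 of 6 endothelial markers rose, 3 without SHMT2HKO mouse 1. The mast cell marker tested, Kit, did not pass, and of 7 hepatocyte markers Ttr rose, which did not pass without SHMT2HKO mouse 1. The part of these shifts in the changes of the 10 genes was not tested.

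Set against the CD3 chains, the 10 genes did not all behave alike. The summed CPM of the 4 CD3 chain genes was 10.1, 9.26 and 9.16 in SHMT2fl/fl livers and 1.49, 1.52 and 2.2 in SHMT2HKO livers, and each gene was divided by it as a description, without a test. The ratio overlapped between genotypes for Gzmb, Gzmk, Nkg7, Klrd1, Pdcd1 and Ctla4. For Nkg7 it was 0.38, 0.35 and 0.373 against 0.6, 0.267 and 0.304, and for Pdcd1 0.0608, 0.061 and 0.0712 against 0.0286, 0.0333 and 0.107. Without SHMT2HKO mouse 1 the ratio of Nkg7 no longer overlapped and was lower in SHMT2HKO livers, while the other 5 still overlapped. For Tox it was 0.343, 0.423 and 0.313 against 3.31, 6.13 and 2.8, and it was also higher without overlap for Lag3, Gzma and Prf1. Whether the Tox transcripts came from T cells was not tested, so its ratio is not a level per T cell. NK cells lack surface CD3, so the ratio is no measure of them, and the ratios of SHMT2HKO mice rest on few counts.

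**Figure D4:**
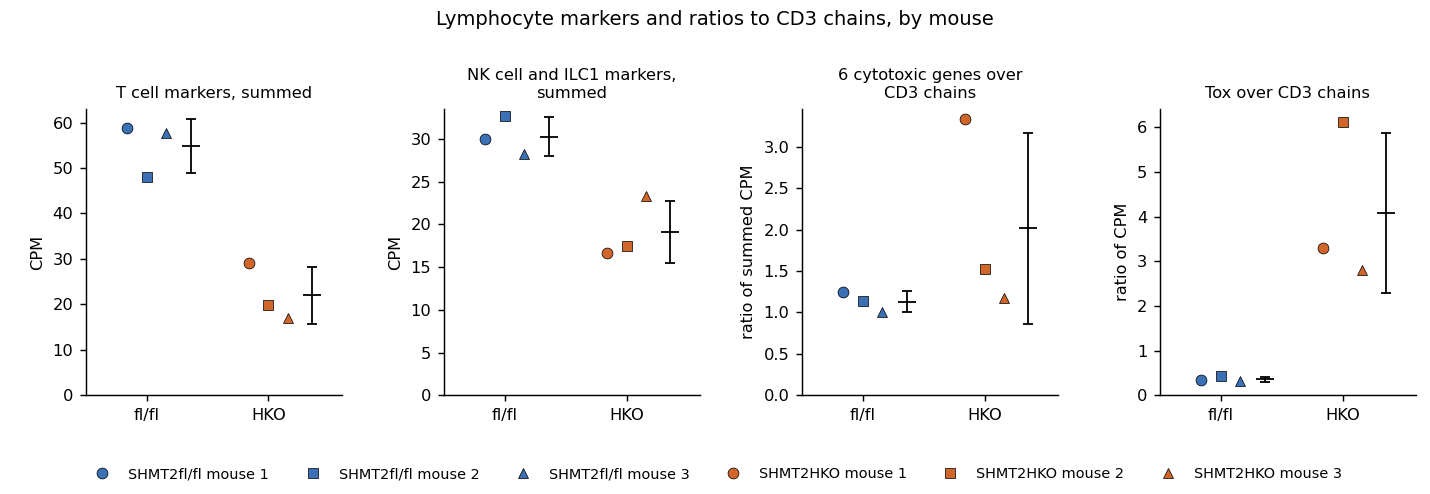
Summed CPM of 16 T cell markers and of 10 NK cell and innate lymphoid cell markers, the summed CPM of 6 cytotoxic genes (Gzma, Gzmb, Gzmk, Prf1, Nkg7, Klrd1) over that of 4 CD3 chains, and Tox over the CD3 chains, for each mouse with mean and SD (n = 3 per group, linear axes from 0). The marker sums are lower in every SHMT2HKO mouse, the cytotoxic ratio overlaps, and the Tox ratio is 2.8 to 6.13 against 0.313 to 0.423.

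The genes whose centred log2 CPM over the 6 libraries lay nearest to the mean profile of the 8 tested genes were Gm31036, Vwa7, Adam19, Zfp7, Ptpn7, Ap3m2, Ankrd13d and Map3k12, with root-mean-square differences of 0.071 to 0.115 log2 units. The mean profile is an average of unlike genes, since the 8 tested genes themselves lay 0.427 (Lag3) to 1.099 (Tox) from it.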

How the data were processed

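Liver RNA of 6 mice was sequenced as read pairs after NEBNext Ultra library preparation. The authors trimmed reads with Trimmomatic 0.36, aligned them with STAR 2.5.2b to GRCm38 with ERCC sequences and deposited raw counts of unique hits per gene. The processing notes also name featureCounts and Subread 1.5.2. The use of strand is not given in the sources used here. Symbols and positions were taken from GENCODE M21. Of 49671 gene IDs, 259 had no entry there (0.0116% of counts), and 92 ERCC RNAs entered neither library sizes nor tests.

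In R 4.3.3, edgeR 4.0.16 was used to drop low genes (filterByExpr), to scale libraries (TMM) and to test genotype by the quasi-likelihood F test (robust, two-sided), without covariates, with Benjamini-Hochberg adjustment over all 16089 genes tested. The study itself used limma-voom. SE is the log2 fold change over the root of F. With 3 mice against 3, an exact permutation test of a single gene cannot go below p = 0.1. P-values measure the spread between these mice. CPM used the TMM-scaled libraries, and 3 counts equal 0.0734 to 0.152 CPM. Intervals of counts are exact, at 95%.

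The members and lists were chosen with earlier results of these data known. The lists of placental, brain and further granzyme transcripts, and the use of the comparison without SHMT2HKO mouse 1 for every list, were chosen after seeing the data. Genes named are the 10 members, Shmt2, listed genes that passed the test (at most the 5 with the smallest and the 2 with the largest adjusted p per list), Fgl1, Cd274, Cd3e, Cd8a, Cd4, Ncr1 and Foxp3, and the 8 nearest profiles (mean log2 CPM of at least 0). Other genes named were chosen after their values were seen. Alternatives were DESeq2 1.42.0, limma-voom of limma 3.58.1, other scalings and filters, non-robust dispersions, a replicate block, and omission of each mouse in turn. The code was tested on simulated data.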

Additional observations from a re-analysis of the deposited data

How the results depend on the processing

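With at least 10 counts in every library, 0 members were lower, because only Gzma, Tox and Lag3 were tested. Leaving out 1 mouse gave 2 to 5 members lower and 0 to 1 higher. The fifth, without SHMT2HKO mouse 1, is Gzmk, which entered that fit through its SHMT2fl/fl counts alone. Without SHMT2fl/fl mouse 2, 3 members were lower, and only 2 of them were among the 4 lower with all mice. With all mice Tox alone was higher, and 0 members were higher without TMM or with ERCC scaling, which moved the median of all genes by -0.42 and -0.72 on the log2 scale. ERCC scaling took the log2 fold changes of Gzmb, Nkg7, Klrd1 and Pdcd1 to -3.01, -3.18, -2.51 and -3.025. Prf1 changed direction with limma-voom (-0.11), without TMM (-0.23), with ERCC scaling (-0.84) and without SHMT2HKO mouse 1, and ranged from -0.83 to 0.67 over the 6 fits that left out 1 mouse. Of all genes, 2651 were lower and 2012 higher, against 4923 and 539 without TMM. With ERCC scaling 2759 were lower and 107 higher, and leaving out 1 mouse gave 1621 to 3076 lower and 805 to 2521 higher. With at least 10 counts in every library, fewer listed genes were tested, and 5 of 6 further receptors and effectors, 4 of 9 transcription factors and cytokine receptors, 4 of 6 T cell markers and 2 of 3 NK cell markers were lower, beside 2292 of 13815 genes (16.6%). Without TMM, 13 further checkpoint genes and 8 ligands were lower, and with ERCC scaling 8 NK cell markers. Leaving out 1 mouse gave 3 to 8 transcription factors and cytokine receptors, 4 to 8 checkpoint genes, 3 to 7 ligands, 9 to 14 T cell markers and 3 to 7 NK cell markers lower. Same-numbered mice did not deviate together (correlations -0.046, 0.013 and -0.077), so the numbers were not taken as pairs. With the replicate block, 4 members were lower and 1 higher, 5 transcription factors and cytokine receptors were lower, and 2187 genes were lower and 1397 higher. Depth limits most the 7 members with under 10 counts in a library.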
